A study of Mus musculus with 2 samples.

Results

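MHC class I molecules and the proteins that load them with peptide were followed in healing mouse skin. The genes were taken by symbol from the annotated normalized table: every H2 gene of the K, D, L, Q, T and M regions and H2-Bl, the light chain B2m, the transporter and loading genes Tap1, Tap2, Tapbp, Tapbpl and Erap1, the transactivator Nlrc5, the inducible proteasome genes Psmb8, Psmb9, Psmb10, Psme1 and Psme2, and the chaperones Calr, Canx and Pdia3. The symbols matched 37 genes with 48 probes, of 17872 genes on the array. Nlrc5, Erap1 and Pdia3 were not matched, since the file carries them under older symbols (AI451557, Arts1 and Grp58). They are described separately, together with the pseudogene H2-K2 (EG630499) and the symbol H2-Tw3, and are left out of the counts unless stated. No gene symbol for H2-D1 or H2-L was matched.

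Total RNA of wounded back skin was hybridised to Illumina bead arrays, 1 array of control and 1 of knockout skin. Both groups were C57BL6 mice of 3 months, kept on a low calcium diet and homozygous for a floxed vitamin D receptor gene (VDR fl/fl), and skin was taken 3 days after wounding. In the knockout group Cre recombinase was driven by keratin 14, so that the gene is removed in cells that express this keratin and in their descendants. Skin cells of other origin keep the gene, and control littermates are listed without Cre. Each mouse had 2 full-thickness wounds made with a 6 mm punch and cut out with an 8 mm punch, and the design text gives RNA of 3 mice per sample. With 1 array per group there was no replicate, no test and no p-value, and every difference describes these 2 arrays.

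Class I molecules are found on nearly all nucleated cells and show peptides from inside the cell to CD8+ T cells and natural killer cells. Peptides are cut by the proteasome, carried into the endoplasmic reticulum by the Tap1-Tap2 transporter, trimmed, and fitted to a heavy chain that is paired with beta-2 microglobulin. The classical heavy chains are highly variable and present many peptides, whereas the non-classical ones vary little and serve specialised receptors. Interferons raise most genes of this pathway through Irf factors and Nlrc5, and the epithelium of the growing hair follicle is known for low class I expression.

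Values are the authors' normalized intensities, on a linear scale that still holds background, and differences are log2 of knockout over control. A probe was counted as detected above an intensity of 172.2 (control array) or 176.7 (knockout array). Vdr itself read 2596 in control skin and 2076 in knockout skin by its brightest probe, 1674 and 1430 by another, and 211.5 and 216.6 by the dimmest. The position of these probes relative to the floxed exons could not be looked up. Of all genes, 8934 were detected on both arrays, with a median difference of 0.02 and the central 95% between -0.58 and 0.65. For 2131 genes with several detected probes the difference varied between probes of the same gene with a pooled SD of 0.14. This SD between probes is a measure of the probes and not of the mice.

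Of the 37 members, 18 were detected on both arrays, and all 18 were higher in knockout skin. Their median difference was 0.60, or 1.51-fold, with a range from 0.23 to 1.58. Among all detected genes 53.9% were higher. At least 1.5-fold higher were 10 of the 18, against 3.55% of all detected genes, and at least 2-fold higher were 4, against 0.739%. None was at least 1.5-fold lower, against 2.51% of all detected genes. No member was detected on 1 array only, and the other 19 were at background, between 130.5 and 172.6.

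The stretches before the start sites of some of these genes are shown because class I genes share control elements for interferon and NF-kB signals. They are from RefSeq on GRCm38.p6, in the direction of transcription and ending at the annotated start of the gene. Capitals mark matches to an interferon-stimulated response element (GAAANNGAA), a gamma-activated site (TTCNNNGAA) or an NF-kB site (GGGNNTTNC), searched on both strands.
B2m, chr2:122147437-122147686, plus strand: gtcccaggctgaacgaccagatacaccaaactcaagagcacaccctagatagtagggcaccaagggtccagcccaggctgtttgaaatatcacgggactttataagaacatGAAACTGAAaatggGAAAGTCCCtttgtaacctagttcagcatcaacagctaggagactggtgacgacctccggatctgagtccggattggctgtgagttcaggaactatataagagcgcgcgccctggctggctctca
H2-T23, chr17:36032702-36032951, minus strand: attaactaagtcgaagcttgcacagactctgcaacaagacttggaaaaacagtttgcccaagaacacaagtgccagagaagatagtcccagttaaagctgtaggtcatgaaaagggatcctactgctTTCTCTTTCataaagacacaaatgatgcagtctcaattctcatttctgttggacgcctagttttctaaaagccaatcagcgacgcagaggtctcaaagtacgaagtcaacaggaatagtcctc
H2-Q7, chr17:35438905-35439139, plus strand: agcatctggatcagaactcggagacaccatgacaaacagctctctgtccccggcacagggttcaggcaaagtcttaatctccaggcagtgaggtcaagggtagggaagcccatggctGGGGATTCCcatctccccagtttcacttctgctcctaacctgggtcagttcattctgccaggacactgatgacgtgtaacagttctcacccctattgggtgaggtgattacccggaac
H2-M3, chr17:37269984-37270233, plus strand: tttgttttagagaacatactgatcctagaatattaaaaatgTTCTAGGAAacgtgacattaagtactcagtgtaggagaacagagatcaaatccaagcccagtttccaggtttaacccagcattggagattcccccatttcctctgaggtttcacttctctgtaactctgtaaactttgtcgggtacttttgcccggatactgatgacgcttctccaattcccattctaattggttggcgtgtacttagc
H2-M2, chr17:37483555-37483804, minus strand: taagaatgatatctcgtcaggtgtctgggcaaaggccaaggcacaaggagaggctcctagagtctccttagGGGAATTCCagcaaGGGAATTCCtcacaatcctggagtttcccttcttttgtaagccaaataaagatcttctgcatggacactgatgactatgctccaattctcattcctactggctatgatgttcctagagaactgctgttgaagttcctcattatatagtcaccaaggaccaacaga
Psmb8, chr17:34197945-34198194, plus strand: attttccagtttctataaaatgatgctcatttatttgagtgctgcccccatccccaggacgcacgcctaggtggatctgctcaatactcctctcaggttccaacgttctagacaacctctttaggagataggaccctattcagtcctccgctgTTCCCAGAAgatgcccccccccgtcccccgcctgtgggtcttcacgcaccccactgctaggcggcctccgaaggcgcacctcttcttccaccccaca
Between Psmb9 and Tap1, chr17:34187331-34187555, plus strand: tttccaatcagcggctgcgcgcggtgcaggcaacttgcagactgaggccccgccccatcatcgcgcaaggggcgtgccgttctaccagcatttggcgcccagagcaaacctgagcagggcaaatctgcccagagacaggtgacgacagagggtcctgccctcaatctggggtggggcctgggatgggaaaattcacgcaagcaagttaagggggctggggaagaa
The B2m stretch holds both a response element and an NF-kB site, which begin 139 and 125 bases before the start site and do not overlap. That of H2-T23 holds a response element, that of H2-Q7 1 NF-kB site, that of H2-M2 2 NF-kB sites, and those of H2-M3 and Psmb8 a gamma-activated site. The response element was searched in the spelling given above only. Related letters, such as tttcacttc in the H2-Q7 and H2-M3 stretches, do not match it and were not marked or counted. Tap1 and Psmb9 are transcribed away from each other, and the 225 bases between them hold none of the 3 motifs. The B2m stretch lies within the longer span of Patl2 and that of H2-T23 within the lncRNA A930015D03Rik. Windows of 250 bases before a start site, the first listed for each gene, were found for 14 of the 18 detected members. The window of H2-Q7 runs past the annotated start of the gene, where its printed stretch of 235 bases ends. Each motif counted for H2-Q7 also occurs before that start. The response element was in 2 of the 14, the gamma-activated site in 2 and the NF-kB site in 4 (B2m, H2-K1, H2-M2 and H2-Q7). Over all 32851 windows of that length the shares were 7.13%, 7.02% and 13.0%. Of 13 members at background with a window, 0 held the response element, 1 a gamma-activated site and 2 an NF-kB site. A CCAAT box was in 10 of the 14 and in 11 of the 13, and in 33.8% of all windows. The letters TGACG, part of a CRE, were in 8 of the 14, in 5 of the 13 and in 17.8% of all windows. Tap1 and Psmb9 share the stretch between them, so that the same CCAAT box and the same TGACG were counted for both genes. These matches describe letters only.

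Classical class I genes were barely measured. H2-K1, which presents peptide to CD8+ T cells, was at 176.6 in control skin and 227.1 in knockout skin, a difference of 0.36 (1.29-fold). The control value lay just above its floor, and this fold still holds the background. After background correction by neqc the difference was 1.07. The background was estimated here from the detection p-values, given to probes in order of signal. With a control value this near the floor, the size of the corrected difference is uncertain. H2-D4, listed by RefSeq as a transcribed pseudogene, was at background on both arrays, at 144.1 and 165.2. H2-K2, likewise a transcribed pseudogene, was at 258.8 and 482.9, 1.87-fold higher. The tables hold no probe sequences and class I genes are very similar to each other, so that a probe may read more than 1 of them.

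Non-classical class I genes included the largest differences of the members. Of 23 on the array, 6 were detected, all higher, with a median of 1.01 (2.01-fold). Past 1.5-fold were 5 of them and past 2-fold 3, against 3.55% and 0.739% of all detected genes. H2-M2 was at 399.4 in control skin and 1197 in knockout skin, 3.00-fold higher. Its difference of 1.58 had rank 7 from the top among the 8934 detected genes. H2-T10, which in mice is bound by some gamma-delta T cell receptors, was at 1046 and 2326, or 2.22-fold. RefSeq lists H2-T10 as a transcribed pseudogene, and whether these C57BL6 mice make a protein from it was not measured. H2-Q8, of the Qa-2 group, was at 606.4 and 1328, 2.19-fold higher. The differences of H2-T10 and H2-Q8 lay 0.02 apart, at ranks 41 and 44, and with 1 array per group their order cannot be told.

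H2-T23 encodes Qa-1, which shows leader peptides of other class I chains to the Klrd1-containing receptor of natural killer cells. Its bright probe was at 407.9 and 752.4, a difference of 0.88 (1.84-fold), while its other probe was at background on both arrays, at 142.4 and 150.0. With the mean over both probes the difference was 0.48. H2-M3, which presents peptides that begin with N-formylmethionine, was at 602.2 and 1001 (1.66-fold). H2-Q7, also of the Qa-2 group, had the smallest difference of the 6, at 241.3 and 359.6 (1.49-fold), and is the single one under 1.5-fold. After neqc it was at 2.05-fold.

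The remaining 17 non-classical genes were at background on both arrays by the probes that carry their symbols. These were H2-Bl, H2-M1, H2-M9, H2-M11, H2-Q1, H2-Q2, H2-Q5, H2-Q10, H2-T3, H2-T17, H2-T24 and 6 genes of the H2-M10 group, which is known from neurons of the mouse vomeronasal organ. The nearest to the floor was H2-M9, at 168.6 and 172.6. The probe under H2-Tw3, which RefSeq gives as another name of H2-T3, differed from the H2-T3 probe and was detected on the control array, at 184.6, but not on the knockout array, at 175.7. The classical and non-classical groups cannot be set against each other by more than these values, since the classical group rests on H2-K1 alone.

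**Figure D1:**
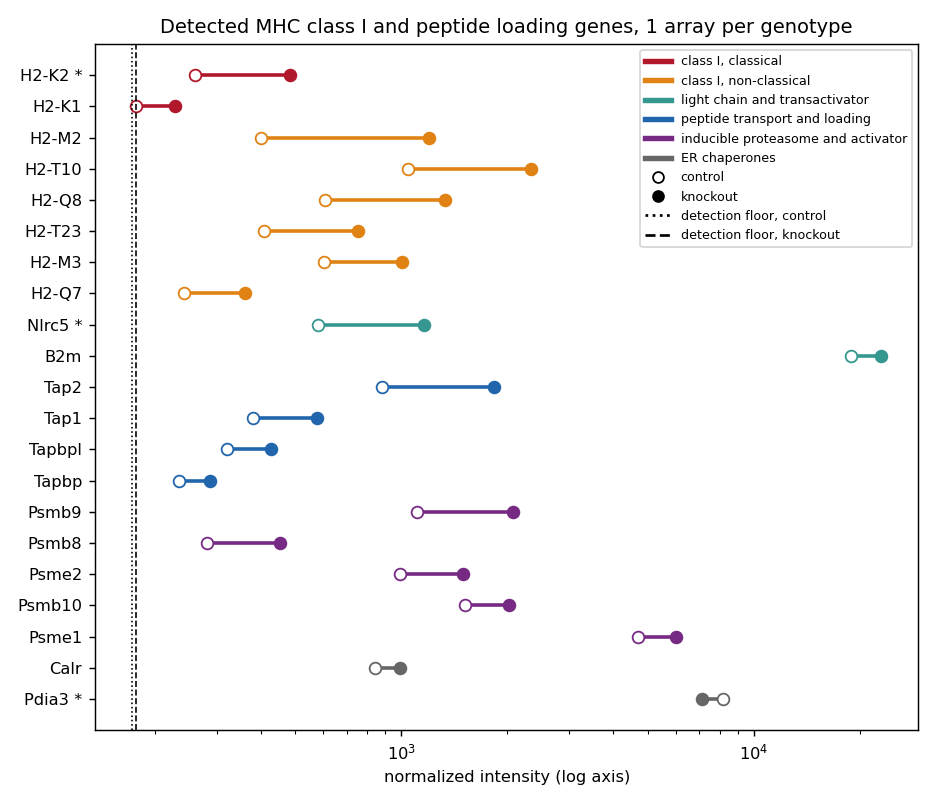
Normalized intensity on a log axis of each detected gene, with the control array as an open and the knockout array as a filled circle, coloured by role, and the detection floors as vertical lines. Genes marked with an asterisk are carried in the file under an older symbol. All 18 unmarked genes are higher on the knockout array, and H2-K1 starts at the floor.

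The light chain differed little. B2m was at 18923 in control skin and 22989 in knockout skin, a difference of 0.28 (1.21-fold). Another bright B2m probe gave 18499 and 23182, or 1.25-fold, and the remaining probe was at background, at 132.8 and 132.5. Both bright probes showed the same direction and differed by less than the SD between probes. Nlrc5, which switches on class I promoters, was at 580.1 and 1163, 2.0-fold higher, at rank 63.

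All 4 transporter and loading genes matched by symbol were higher, with a median of 0.51. Tap2, a chain of the peptide transporter, was at 883.1 and 1834 (2.08-fold), and its partner Tap1 was at 379.6 and 576.8 (1.52-fold). Their differences, 1.05 and 0.60, lay 0.45 apart. Tapbp, which encodes tapasin and bridges the transporter to the heavy chain, was at 233.3 and 285.9 (1.23-fold) by its bright probe, and its other probe was at background. Tapbpl, a tapasin relative that edits the bound peptides, was at 320.2 and 426.7 (1.33-fold), with 2 further probes at background. Erap1, the peptidase that trims peptides in the endoplasmic reticulum, was at background on both arrays by both of its probes, at 145.9 and 150.5 for the brighter one.

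The inducible proteasome genes were higher as well, all 5 of them, with a median of 0.59. Past 1.5-fold were 3, against 3.55% of all detected genes. Psmb9, a catalytic subunit, was at 1108 in control skin and 2072 in knockout skin, 1.87-fold higher and at rank 89. Psmb8, also catalytic, was at 281.1 and 452.6 (1.61-fold). Psmb10, the third, was at 1511 and 2025 (1.34-fold) by its brighter probe and at 1319 and 2052 (1.56-fold) by the other, so that its place relative to 1.5-fold depends on the probe. The chains of the proteasome activator PA28 were at 993.8 and 1498 for Psme2 (1.51-fold) and at 4698 and 6004 for Psme1 (1.28-fold). A second Psme1 probe gave 1.30-fold.

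The subunits that Psmb8, Psmb9 and Psmb10 replace, Psmb5, Psmb6 and Psmb7, showed differences of -0.06, -0.03 and 0.14. The inducible gene exceeded its counterpart by 0.75 for Psmb8, 0.93 for Psmb9 and 0.28 for Psmb10, and its excess kept this direction in the raw, offset and neqc values. The excess of Psmb10 is that of its brighter probe, with a difference of 0.42. Its other probe had a difference of 0.64, so that the size of this excess depends on the probe. Of 14 constitutive 20S genes 12 were detected, of which 11 were lower and 1 higher, none by 1.5-fold, with a median of -0.07. Among all 8934 detected genes 4111 were lower. Of 15 genes of caps and assembly 14 were detected, with a median of -0.11 and none past 1.5-fold. Among these Psme3, a PA28 relative of the nucleus, was at 2732 and 2270, and Psmd14, a deubiquitinase of the cap, at 701.7 and 561.8. Pomp, the proteasome maturation protein and the brightest by the mean of both arrays, was at 10545 and 10374.

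Of the chaperones that fold the heavy chain, Calr and Pdia3 were detected, and neither passed 1.5-fold. Calr, which encodes calreticulin, was at 843.0 and 989.6 (1.17-fold), the smallest difference of the 18 members by the brightest probe. With the mean over all probes of a gene, Tapbp (0.14) and B2m (0.20) had smaller differences than Calr (0.23). Canx, for calnexin, was at background by its 1 probe. Pdia3, the thiol oxidoreductase ERp57 of the loading complex, was at 8195 in control skin and 7126 in knockout skin, a difference of -0.20, and was the 1 gene detected on both arrays, older symbols included, that was lower among those of the rule. Of 12 other genes of protein folding in the endoplasmic reticulum 9 were detected, 6 higher and 3 lower, with a median of 0.03 and none past 1.5-fold. P4hb, a protein disulfide isomerase, was at 15763 and 16507, and Sec61a1, of the translocation channel, at 1364 and 1521. Peptidases of the cytosol and of recycling compartments had a median of -0.07 over 5 detected genes of 8, and Nrd1 was at 5033 and 3966.

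**Figure D2:**
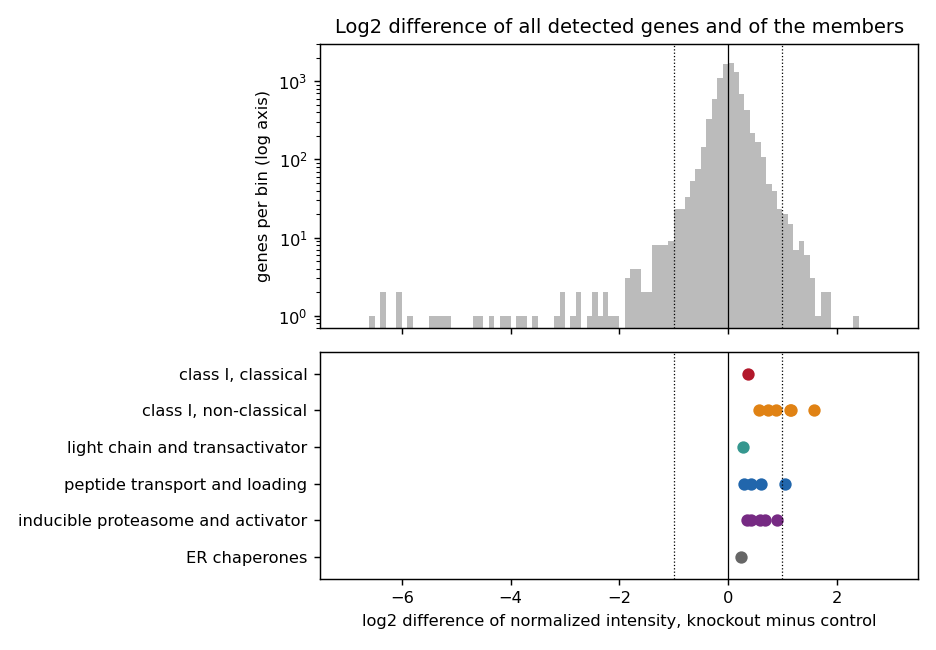
The upper panel counts all 8934 genes detected on both arrays by log2 difference in bins of 0.1, with a log axis for the counts. The lower panel shows the 18 detected members by role, with dotted lines at 2-fold. All member points lie right of 0, between 0.23 and 1.58.

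Regulators of class I genes were partly higher. Of 23 listed genes 17 were detected, 14 higher and 3 lower, with a median of 0.29 and 5 past 1.5-fold. Among all detected genes 53.9% were higher and 3.55% at least 1.5-fold higher. Irf9, a subunit of the interferon-activated factor ISGF3, was at 806.3 and 1429 (1.77-fold), and Stat2, another subunit, was 1.64-fold higher. Irf1, a direct activator of class I promoters, was at 2317 and 3956 (1.71-fold). Ciita, the transactivator of class II genes, was at 241.2 and 432.8 (1.79-fold). Nfyc, a subunit of the factor that binds CCAAT boxes, was at 4672 and 3847. For comparison, 6 of 10 class II genes were detected, all higher, with a median of 0.94, beside 0.88 over the 7 detected class I heavy chain genes.

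Markers of interferon response and of several cell types also differed between the arrays. Sums of intensity are over the genes of a list detected on at least 1 array. Of 16 interferon-response genes 12 were detected on both arrays, all higher, with a median of 1.03, and 2 on the knockout array only, and the 14 summed to 8219 in control skin and 18082 in knockout skin. T cell markers, 6 of 12 detected on both arrays and 2 on the knockout array only, summed to 7784 and 9357, with Cd4, Cd8a, Cd5 and Cd247 at background. Markers of natural killer and cytotoxic cells, 3 of 8 detected on both arrays and 1 on the knockout array only, summed to 1034 and 1507, with Ncr1, Klrb1c, Gzma and Gzmb at background. Of the 6 T cell genes 5 were higher and 1 lower, with a median of 0.85. Cd3g and Itgae had the largest differences, at 2.20-fold and 2.36-fold, while Lck was at 270.5 and 260.2. Thy1, which fibroblasts also express, made up most of the T cell sum, at 5987 and 6137.

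Macrophage markers, 12 of 12 detected, summed to 49563 and 60936, and Langerhans and dendritic cell markers, 5 of 11 on both arrays and 1 on the control array only, to 1470 and 1869, with Itgax, Flt3, Zbtb46, Ccr7 and Clec9a at background. Those of B cells, 1 of 4 detected, summed to 197.2 and 219.4, of neutrophils, 6 of 8, to 44522 and 43879, and of endothelium, 7 of 8, to 3794 and 4698. S100a8 alone made up most of the neutrophil sum, at 27568 and 28157. Of the 6 neutrophil genes 3 were higher and 3 lower. Fibroblast markers, 6 of 6, summed to 38028 and 42969. Basal keratinocyte markers, 6 of 6 detected, were close at 64832 and 67360, and suprabasal ones, 5 of 6, summed to 56239 and 66102. Sebaceous gland markers, 6 of 7, summed to 20928 and 40598. Growing hair follicle markers, 8 of 11 detected on both arrays and 3 on the control array only, summed to 145987 in control skin and 3366 in knockout skin, and melanocyte markers, 4 of 6 detected on both arrays and 1 on the control array only, to 11415 and 1255. The part of these markers in the class I differences was not tested. In whole skin, more cells of a type and more RNA per cell cannot be told apart.

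**Figure D3:**
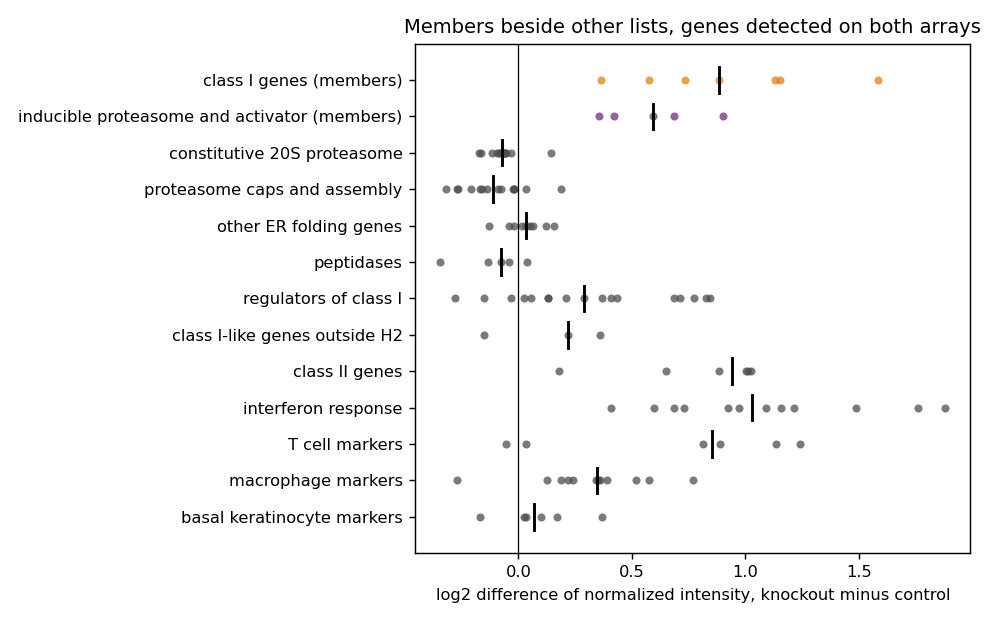
Log2 difference, knockout minus control, of each gene detected on both arrays, with class I and inducible proteasome members at the top and the other lists under them, and a black bar at each median. The class I and inducible proteasome points all lie above 0, while the constitutive proteasome lists have medians of -0.07 and -0.11.

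The way the values were made changed the size of the differences but not their direction in the 18 members. The difference of H2-M2 ran from 1.45 to 1.92 over the settings tried and that of H2-K1 from 0.29 to 1.07. B2m ran from 0.20 to 0.36 and Psmb9 from 0.79 to 0.97. Genes with several probes had smaller values when dim probes were averaged in, as for Tapbp, which ran from 0.14 to 0.60.

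**Figure D4:**
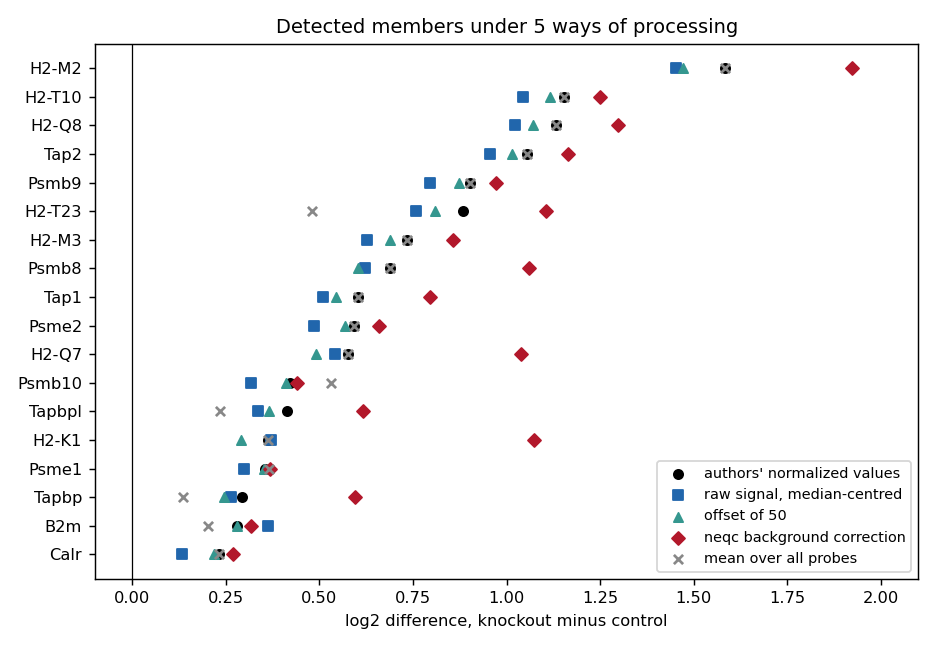
Log2 difference of each detected member under 5 ways of processing, with the authors' normalized values as black circles. All points lie above 0, and background correction by neqc gives the largest values for 16 of the 18 genes.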

How the data were processed

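Wounded skin of 2 genotypes was measured on 2 Illumina arrays, 1 per genotype, and samples were grouped by their titles. Per the submitters' processing notes, scanner data were processed with GenomeStudio 2011.1. The deposited raw table holds the mean bead intensity per probe without background subtraction, and the deposited normalized table holds intensity with the same quantiles on both arrays. The series matrix equals the latter, with 0 probes differing. How the normalization was done is not stated in these sources. The deposited detection p-values did not follow the row order of the signals (rank correlation 0.009 and 0.008) and were used as a set: on each array as many of the brightest probes were called detected as there were p-values under 0.01. Each gene took the values of its brightest probe, log2 was taken with no offset, and genes other than the members were named through RefSeq (GRCm38.p6). The number of arrays limits the precision.

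All detected members are named with their values, and of other lists at most the 3 with the largest difference and the brightest. Stat2, Psmb5, Psmb6 and Lck, and genes of other lists given as at background or on 1 array only, were named outside this rule after their values were seen. Members, lists and alternatives were chosen with earlier results of these data known. Alternatives were the raw signal, neqc (limma 3.58.1, R 4.3.3) with the p-values given to probes in order of signal, an offset of 50, a detection p-value under 0.05, no filter and the mean over probes. The gene step was tested on simulated data.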

Additional observations from a re-analysis of the deposited data

How the results depend on the processing

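All 18 detected members stayed higher in the knockout under the raw signal, neqc, the offset, both other detection rules and the mean over probes, with differences from 0.13 upwards. With neqc 8 members passed 2-fold, against 4 as measured, and all 4 were among them, while 1.80% of all detected genes passed it. The classical median, which is H2-K1 alone, was 1.07 with neqc. Without a detection filter the median of the non-classical genes was -0.0066, since 17 genes at background entered it, and that of all 37 members was 0.20. The number past 1.5-fold ran from 8 (raw signal or offset) to 14 (neqc), while the share of all detected genes was 2.21%, 2.87% and 7.41%. Added after seeing the data, the genes under older symbols gave 20 of 21 higher with a median of 0.60, and the chaperone median became 0.01 with Pdia3. Leaving out probes that match several genes was not run, because the tables hold no probe sequences. No paired analysis was possible because each group has 1 array. Signal near background limits H2-K1, H2-Q7 and Tapbp.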

Other observations

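Class I-like molecules coded outside the H2 complex differed little where they were detected. On both arrays 3 of 11 were detected, with a median of 0.22 and none past 1.5-fold. Cd1d1, which presents lipids to natural killer T cells, read 405.8 in control skin and 520.4 in knockout skin, and Hfe, which regulates iron uptake, was at 814.5 and 948.0. Fcgrt, the neonatal Fc receptor, was at 5062 and 4562. Procr, the protein C receptor, passed the floor in the knockout alone, at 180.9, at least 1.05-fold higher. Mr1, Azgp1, Mill1, Mill2, Cd1d2, Raet1d and Raet1e were at background.

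Receptors that recognise class I molecules were mostly at background. Of 9 on the array Klrd1, a chain of the receptor for Qa-1, was the 1 gene detected on both arrays, at 190.5 and 263.9. Cd8b1, a chain of the CD8 coreceptor, passed the floor on the knockout array, not on the control array, at 278.7, at least 1.62-fold higher. Cd8a, its partner chain, was at background on both arrays, as were Klrk1, Cd160 and 4 Klra genes.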
